A study of Mus musculus with 20 samples.

Results

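Toll-like receptors sense microbial molecules at the cell surface or in endosomes, and the NOD-like receptors do so in the cytosol. Lipopolysaccharide of Gram-negative bacteria is picked up by the serum protein Lbp, handed to Cd14 and then to the pair Tlr4 and Ly96, and the adaptor Myd88 links most Toll-like receptors, and the receptor of interleukin-1 itself, to NF-κB. In liver, hepatocytes secrete Lbp as an acute-phase protein, and Kupffer cells, the resident macrophages, are a classical site of lipopolysaccharide sensing.

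The 10 genes followed were chosen from this system: Lbp, Cd14, Ly96 and Tlr4 of lipopolysaccharide recognition, the receptors Tlr2 and Tlr3, the adaptor Myd88, and the cytosolic receptors Nod1, Nod2 and Nlrp3. Members were selected by gene symbol, and all 10 were found among the 37681 genes of each count table. Wild-type male C57/B6J mice (strain label C57/BL6) aged 12 weeks had received either 20 µg/kg of IL-1β, a proinflammatory cytokine, or saline by intraperitoneal injection, with 5 mice per group, and liver was collected 4 hours later. The saline group is the control and is called untreated by the study. RNA of each mouse was sequenced as 1 Illumina HiSeq library and 1 Ion Torrent Proton library. Reads of each platform had been aligned in 3 ways, giving 6 count tables of 10 libraries each. Values below come from the Illumina reads aligned with STAR unless another table is named, as counts-per-million values (CPM), with library sizes scaled by the trimmed mean of M-values. Mice are named by their labels, with UNT for saline and ILB for IL-1β. The mice are separate animals. Errors of levels are SD over 5 mice, and SE is the standard error of a log2 fold change. The p-values of IL-1β against saline set the group difference against the variation between mice. The platform term compares the 2 libraries of each mouse.

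Library totals ran from 10568530 to 11046256 counts in the Illumina STAR table and from 12199528 to 12723326 in the Ion Torrent STAR table. The minimum of 5 counts in at least 5 of 10 libraries in at least 1 table was met by 15578 genes, among them 9 of the 10 members; Nod2 missed it in all 6 tables. All 6 hepatocyte markers examined were present and Alb, serum albumin, had the highest level of them. The expression deviations of the same mouse on the 2 platforms correlated with r between 0.575 and 0.719 across 10867 genes for 9 mice, but with r = 0.242 for saline mouse UNT_9584, which correlated at 0.305 with another mouse. The paper reports that the Ion Torrent read lengths of this sample were shifted. Without mouse UNT_9584 the same number of members, 6, passed the test in the Illumina STAR table, 5 of them higher and 1 lower. That fit does not hold the Ion Torrent library of the mouse, and Ion Torrent calls without it are not given here.

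IL-1β was accompanied by a higher level of 5 of the 9 tested members and a lower level of 1. Cd14 and Tlr2 rose most, by 117-fold and 45.1-fold, followed by Lbp (5.60-fold), Myd88 (3.41-fold) and Ly96 (2.61-fold), while Tlr3 fell 3.11-fold. Tlr4, Nod1 and Nlrp3 did not pass the test in this table. The test was edgeR's quasi-likelihood test with Benjamini-Hochberg adjustment over the 15578 genes and a threshold of 0.05. By the same test 45.7% of all tested genes were called, 22.7% higher and 22.9% lower. The members that passed were also the 6 whose groups did not overlap, against 33.9% of all tested genes, and the same 6 passed in each of the 6 tables, where 47.5% (GSNAP) and 47.4% (STAR followed by Bowtie2) of all tested genes passed on Illumina, and 46.4% (GSNAP), 42.1% (STAR) and 46.7% (STAR followed by Bowtie2) on Ion Torrent. The median log2 fold change was 1.38 over the 9 tested members and 0 over all tested genes.

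**Figure D1:**
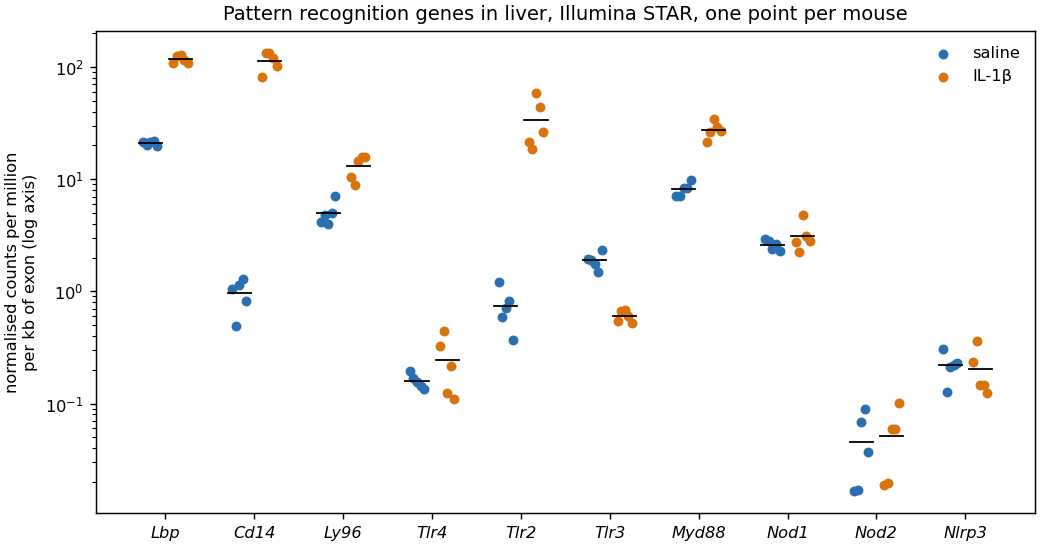
Level of each of the 10 genes in the Illumina STAR table, in CPM per kilobase of exon on a log axis, with 1 point per mouse (blue saline, orange IL-1β) and a bar at the group mean of 5 mice. Cd14 and Tlr2 move from near 1 in saline livers to 114 and 33.9 in treated livers, Tlr3 falls, and the points of Tlr4, Nod1, Nod2 and Nlrp3 overlap between groups.

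Of the lipopolysaccharide recognition genes, Cd14 changed most. Cd14 (ENSMUSG00000051439; NCBIM37 chromosome 18, 36884728 to 36886390, minus strand, 1 transcript) encodes the glycolipid-anchored or soluble co-receptor that delivers lipopolysaccharide to Tlr4 and Ly96. Its level was 1.66, 0.766, 1.80, 2.04 and 1.30 CPM in saline mice UNT_9574, UNT_9575, UNT_9576, UNT_9580 and UNT_9584. In IL-1β mice ILB_9577, ILB_9578, ILB_9579, ILB_9582 and ILB_9583 it was 127, 207, 209, 189 and 160.5 CPM. The lowest treated liver thus stood far above the highest saline liver. Group means were 179 ± 34.9 and 1.52 ± 0.498 CPM (SD, n = 5 each), a log2 fold change of 6.87 (SE 0.22) with an edgeR adjusted p of 1.14e-11. The saline level rested on 9 to 23 counts per library, so the size of the fold carries the counting error of those low numbers. Over the 6 tables the log2 fold change ran from 6.64 to 7.03, or from 99.5-fold to 131-fold.

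Lbp (ENSMUSG00000016024; chromosome 2, 158132229 to 158158588, plus strand, 5 transcripts) encodes the lipopolysaccharide-binding protein of serum. It was already abundant without the cytokine, at 104, 96.7, 103, 106 and 94.96 CPM in the saline mice in the order above. Treated livers held 522, 607, 611, 556 and 529 CPM. Neither group spread by more than a fraction of the gap between them, with SDs of 0.069 (saline) and 0.11 (IL-1β) on the log2 scale, the narrowest treated spread of the 10 genes. The means were 565 ± 42.1 and 101 ± 4.77 CPM (SD, n = 5 each), a log2 fold change of 2.48 (SE 0.093) with an edgeR adjusted p of 8.38e-11.

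Ly96 (ENSMUSG00000025779; chromosome 1, 16678537 to 16699686, plus strand, 1 transcript) encodes MD-2, the protein that binds lipopolysaccharide directly within the Tlr4 complex. Saline livers had 2.497, 2.89, 2.40, 3.02 and 4.27 CPM, and treated livers 6.35, 5.32, 8.74, 9.42 and 9.56 CPM. The groups were close but did not overlap, the nearest pair being treated mouse ILB_9578 and saline mouse UNT_9584. The log2 fold change was 1.38 (SE 0.21) with an edgeR adjusted p of 8.33e-05, and it lay between 1.38 and 1.65 over the 6 tables.

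Tlr4 (ENSMUSG00000039005; chromosome 4, 66488618 to 66591318, plus strand, 4 transcripts), the signaling receptor of the complex, was the member whose call depended on the platform. In the Illumina STAR table it held 1.08, 0.936, 0.858, 0.7998 and 0.743 CPM in saline mice and 1.80, 2.46, 0.695, 1.19 and 0.604 CPM in IL-1β mice. The saline values lay inside the treated range, in which treated mice ILB_9577, ILB_9578 and ILB_9582 were above every saline mouse, and ILB_9579 and ILB_9583 below every one. The log2 fold change was 0.61 (SE 0.36) with an edgeR adjusted p of 0.193. These values rest on 69 counts in the 5 treated libraries together and 51 in the 5 saline libraries.

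On Ion Torrent with STAR, Tlr4 was at 0.290, 0.519, 0.152, 0.555 and 0.157 CPM in saline mice and at 1.05, 1.77, 0.939, 0.853 and 0.890 CPM in IL-1β mice. Here the groups did not overlap, and the log2 fold change was 1.69 (SE 0.42, edgeR adjusted p = 0.00349), from 65 counts against 22, in a table in which 20.3% of all tested genes were called higher. The gene passed the test in the 3 Ion Torrent tables (adjusted p = 0.0151 with GSNAP and 0.0122 with STAR followed by Bowtie2) and in none of the 3 Illumina tables. The difference between platforms was itself tested in 1 model of the 20 STAR libraries with the mouse as a block. The Ion Torrent log2 fold change of Tlr4 exceeded the Illumina one by 1.14 (95% interval 0.19 to 2.09), with an unadjusted p of 0.0268 and an edgeR adjusted p of 0.696, so a difference between the platforms was not shown for Tlr4. Treated means were 1.35 ± 0.784 CPM on Illumina and 1.10 ± 0.382 CPM on Ion Torrent, and saline means 0.884 ± 0.132 and 0.335 ± 0.193 CPM (SD, n = 5 each).

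**Figure D2:**
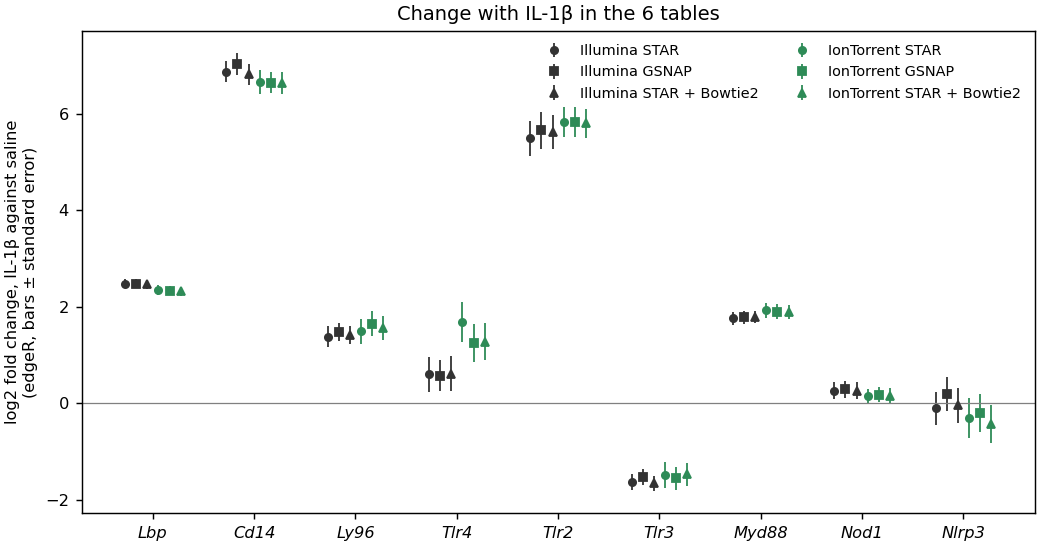
Log2 fold change, IL-1β against saline, of the 9 tested genes in each of the 6 tables (edgeR, bars are standard errors, black Illumina, green Ion Torrent, marker shape for aligner). Points of the 6 called genes lie together on 1 side of 0 in every table, while Tlr4 runs from 0.57 to 1.69 and Nlrp3 falls on both sides of 0.

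Among the other receptors, Tlr2 (ENSMUSG00000027995; chromosome 3, 83640195 to 83645689, minus strand, 1 transcript) senses bacterial lipoproteins as a dimer with Tlr1 or Tlr6. The RefSeq sequence around its start site, from 250 bases before to 50 after (GRCm38.p6, chr3:83841559-83841858, minus strand), is shown because Tlr2 was the receptor that rose most, with the letters that match the κB consensus, the site bound by NF-κB, in capitals:
Tlr2: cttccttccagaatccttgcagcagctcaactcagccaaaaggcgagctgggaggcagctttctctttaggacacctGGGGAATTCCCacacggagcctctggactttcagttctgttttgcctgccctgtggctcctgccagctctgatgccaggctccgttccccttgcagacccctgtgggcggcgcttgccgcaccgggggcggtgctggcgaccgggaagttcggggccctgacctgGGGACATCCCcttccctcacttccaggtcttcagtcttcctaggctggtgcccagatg
The first capital run, starting 173 bases before the start site, holds a pair of overlapping matches and the second a single one, 8 bases before it. Such a match is a description of letters and not evidence of binding, and 8.46% of the 32817 windows of this length in the table held at least 1.

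Tlr2 was at 3.66, 1.79, 2.15, 2.49 and 1.12 CPM in the saline mice. In the IL-1β mice it was at 64.7, 56.5, 177, 133 and 79.4 CPM. Every treated liver was more than 10 times above every saline liver, but the treated livers differed widely among themselves, mouse ILB_9579 being 3.13 times mouse ILB_9578. The means were 102 ± 51.4 and 2.24 ± 0.944 CPM (SD, n = 5 each), a log2 fold change of 5.49 (SE 0.37) with an edgeR adjusted p of 2.42e-08. The 6 tables gave log2 fold changes of 5.49 to 5.83.

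Tlr3 (ENSMUSG00000031639; chromosome 8, 46481019 to 46495962, minus strand, 2 transcripts), the endosomal receptor of double-stranded RNA, which signals through Ticam1 rather than Myd88, was the single member that fell. Its RefSeq start-site window (GRCm38.p6, chr8:45410331-45410630, minus strand) is shown as a contrast to that of Tlr2, since it too held a κB match, the first capital run, 211 bases before the start. The second capital run, 95 bases before it, matched on the opposite strand the C/EBP letters TTGCNNAA, which 10.8% of all windows held:
Tlr3: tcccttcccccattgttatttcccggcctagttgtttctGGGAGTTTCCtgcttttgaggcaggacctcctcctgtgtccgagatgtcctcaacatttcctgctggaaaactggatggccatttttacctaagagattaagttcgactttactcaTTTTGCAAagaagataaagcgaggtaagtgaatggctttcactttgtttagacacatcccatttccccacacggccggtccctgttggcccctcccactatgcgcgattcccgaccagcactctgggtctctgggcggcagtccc
Saline livers had 8.49, 8.43, 7.73, 6.58 and 10.2 CPM and IL-1β livers 2.37, 2.96, 2.98, 2.68 and 2.32 CPM. The treated mice lay within a narrow band below the whole saline range. The log2 fold change was -1.64 (SE 0.17) with an edgeR adjusted p of 1.68e-06, and it was between -1.65 and -1.47 over the 6 tables. A stretch of 186 bases of a Tlr3 transcript matched 9230019H11Rik at 81.7% identity, the highest-scoring match of Tlr3 to another coding transcript.

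Myd88 (ENSMUSG00000032508; chromosome 9, 119245052 to 119250529, minus strand, 4 transcripts) carries signals of Tlr2, Tlr4 and the interleukin-1 receptor but not of Tlr3. Its RefSeq start-site window (GRCm38.p6, chr9:119339969-119340268, minus strand) is shown because it held none of the κB letters and was the single window, of the 8 found for 6 of the members, with a match to the core of the interferon-stimulated response element:
Myd88: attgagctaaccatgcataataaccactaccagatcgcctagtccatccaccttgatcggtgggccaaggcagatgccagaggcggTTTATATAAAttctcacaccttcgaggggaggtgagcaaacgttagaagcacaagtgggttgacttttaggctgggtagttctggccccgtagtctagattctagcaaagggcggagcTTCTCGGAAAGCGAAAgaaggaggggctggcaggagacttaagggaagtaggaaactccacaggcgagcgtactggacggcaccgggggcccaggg
The first capital run holds 2 overlapping TATA box matches (TATAAA, 13.6% of all windows), 1 on each strand and the first starting 164 bases before the start site. The second joins, 46 bases before it, the STAT letters TTCNNNGAA (8.29% of windows) and, overlapping them, that core (3.43% of windows). A STAT match also stood in 1 of the windows of Nod1. Of the 8 windows 3 held a κB match, those of Tlr2 and Tlr3 and 1 of Nlrp3 (186 bases before the start), a member that did not pass the test. Both strands were searched, also for the AP-1 letters TGANTCA (7.81% of windows), which no member window held. No window was matched for Cd14, Lbp, Ly96 and Tlr4, and 3 of the 8 windows held none of the 6 motifs.

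Myd88 was at 18.4, 18.1, 21.5, 21.5 and 25.1 CPM in saline livers and at 54.9, 68.3, 89.4, 74.6 and 69.0 CPM in treated livers. The groups were well apart, the lowest treated mouse having more than 2 times the level of the highest saline mouse. The log2 fold change was 1.77 (SE 0.13) with an edgeR adjusted p of 8.90e-08, and 1.77 to 1.93 over the 6 tables. In the annotation 67 exon bases of Myd88 lie opposite exons of Acaa1a, and whether the counting used strand is not given in the sources used here, so a share of these counts could belong to either gene.

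The cytosolic receptors did not pass the test. Nod1 (ENSMUSG00000038058; chromosome 6, 54873936 to 54922606, minus strand, 2 transcripts), which senses a peptidoglycan fragment common in Gram-negative bacteria, was at 12.8, 12.4, 10.56, 11.7 and 10.04 CPM in saline mice and at 12.1, 9.86, 21.2, 13.7 and 12.5 CPM in IL-1β mice. A single treated liver, mouse ILB_9579, was clearly above the saline range. The log2 fold change was 0.27 (SE 0.18, edgeR adjusted p = 0.246) and 0.15 to 0.30 over the 6 tables, and without a mouse in turn it ran from 0.064 to 0.37.

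Nlrp3 (ENSMUSG00000032691; chromosome 11, 59355070 to 59380458, plus strand, 5 transcripts), the sensor of the inflammasome that activates caspase-1, was at 1.25, 0.511, 0.858, 0.889 and 0.929 CPM in saline mice and at 0.948, 1.48, 0.596, 0.595 and 0.503 CPM in IL-1β mice. The groups overlapped almost wholly, on 5 to 15 counts per library. The log2 fold change was -0.10 (SE 0.35, edgeR adjusted p = 0.865), and over the 6 tables it ran from -0.43 to 0.20, so neither direction can be given. An Nlrp3 transcript matched Nlrp12 at 68.5% identity over 594 bases.

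Nod2 (ENSMUSG00000055994; chromosome 8, 91171214 to 91212373, plus strand, 4 transcripts), the receptor of muramyl dipeptide, had 1 to 5 counts per library, 13 counts in the 5 treated and 13 in the 5 saline libraries. On Ion Torrent it had 24 and 16. It missed the minimum count, and in the fit with no minimum its log2 fold change was 0.17 (SE 0.60) with an edgeR adjusted p of 0.854; a change of Nod2 was not detectable at this depth.

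Dividing by exon length places the 10 genes on 1 scale of level, in CPM per kilobase. In saline liver the order was Lbp (20.9), Myd88 (8.12), Ly96 (5.01), Nod1 (2.61), Tlr3 (1.89), Cd14 (0.964), Tlr2 (0.743), Nlrp3 (0.219), Tlr4 (0.159) and Nod2 (0.0456). Neighbours whose ranges over mice overlapped were Myd88 and Ly96, Nod1 and Tlr3, Cd14 and Tlr2, and Nlrp3 and Tlr4. In treated liver the order was Lbp (117), Cd14 (114), Tlr2 (33.9), Myd88 (27.7), Ly96 (13.1), Nod1 (3.14), Tlr3 (0.605), Tlr4 (0.243), Nlrp3 (0.203) and Nod2 (0.0516). The overlapping neighbours were then Lbp and Cd14, Tlr2 and Myd88, and Tlr4 and Nlrp3. Cd14 thus went from the sixth place to the second and Tlr2 from the seventh to the third, while Tlr3 went from the fifth to the seventh. The first place depended on the table: Cd14 stood above Lbp in treated liver in Illumina STAR followed by Bowtie2 and in the 3 Ion Torrent tables (175 against 122 in Ion Torrent STAR, with overlapping ranges), and on Ion Torrent it took the fifth place, above Tlr3, in saline liver. As a share of the summed CPM of the 10 genes, without division by length, Cd14 went from 0.537 to 1.32% in saline mice to 16.0 to 21.6% in treated mice, Tlr2 from 0.749 to 2.38% to 5.88 to 15.8%, and Lbp from 63.8 to 68.2% to 54.5 to 65.9%.

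The RNA of the treated mice was sequenced again on Ion Torrent, which allows their order to be compared. Mouse ILB_9579 had the highest level of Tlr2, Tlr3, Myd88 and Nod1 among treated mice on both platforms, and mouse ILB_9582 the second highest of Tlr2, Myd88 and Nod1 on both. Mouse ILB_9577 was the lowest for Cd14, Lbp and Myd88 on both platforms, and mouse ILB_9578 for Tlr2. Tlr4 and Nlrp3 had another order, with mouse ILB_9578 highest and ILB_9577 second on both platforms. The ratio of the highest to the lowest treated mouse was 3.13 (Illumina) and 2.72 (Ion Torrent) for Tlr2, 2.15 and 1.97 for Nod1, 1.65 and 1.68 for Cd14, and 1.17 and 1.15 for Lbp. It differed more for Tlr3 (1.29 and 3.72), Tlr4 (4.08 and 2.08) and Nlrp3 (2.94 and 6.42), which had low counts. For Nod2, the gene of lowest count, the ratio was 5.31 and 4.74. The highest mouse also changed for Cd14 (ILB_9579 and then ILB_9578), Lbp (ILB_9579 and then ILB_9583) and Ly96 (ILB_9583 and then ILB_9579), and the lowest for Ly96 (ILB_9578 and then ILB_9577) and Nod1 (ILB_9578 and then ILB_9583). Both libraries of a mouse came from the same RNA, so these orders are repeated measurement of 5 livers and not independent support.

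**Figure D3:**
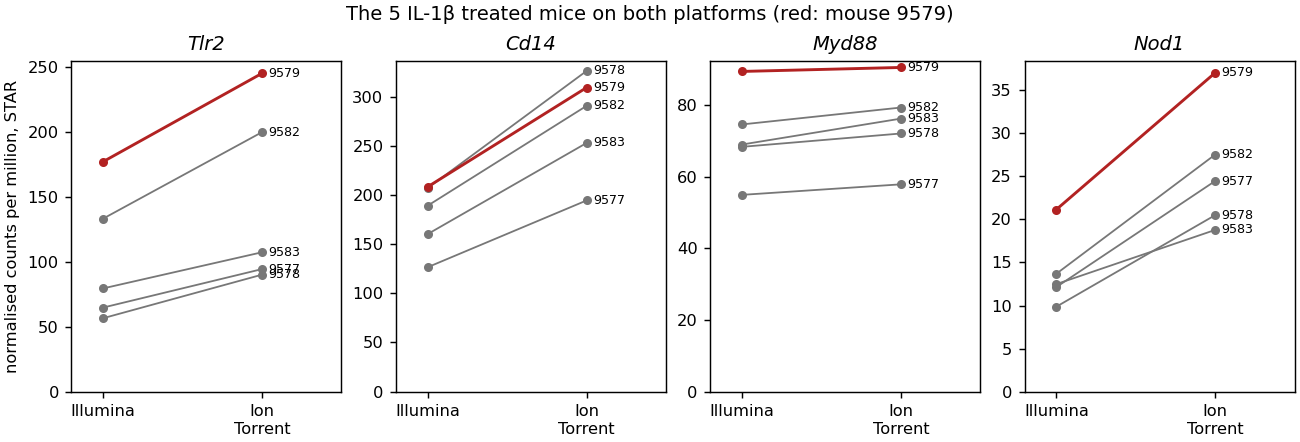
Level of Tlr2, Cd14, Myd88 and Nod1 in the 5 IL-1β treated mice, in CPM (linear axes from 0, STAR tables), with a line joining the Illumina and the Ion Torrent library of each mouse and mouse ILB_9579 in red. Mouse ILB_9579 is highest on both platforms for Tlr2, Myd88 and Nod1, and the spread between mice is widest for Tlr2.

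For the members other than Tlr4, the platform-by-treatment difference (Ion Torrent minus Illumina log2 fold change, STAR) had an interval that included 0. It was 0.35 for Tlr2 (95% interval -0.026 to 0.72), -0.19 for Cd14 (-0.54 to 0.16), -0.12 for Lbp (-0.28 to 0.048) and 0.19 for Myd88 (-0.0099 to 0.40). The others were 0.13 for Ly96 (-0.33 to 0.58), 0.14 for Tlr3 (-0.35 to 0.64), -0.098 for Nod1 (-0.35 to 0.16) and -0.20 for Nlrp3 (-1.12 to 0.72). No member passed the edgeR test after adjustment. With STAR, 1 of the 9, Tlr4, had an unadjusted p under 0.05, and over all tested genes 0.00642% (1 gene) passed. With GSNAP the interval for Tlr4 included 0 (-0.051 to 1.44, edgeR unadjusted p = 0.0814). For Cd14 it excluded 0 there (-0.76 to -0.031, edgeR unadjusted p = 0.0449, adjusted p = 0.633). With STAR followed by Bowtie2, 0 members had an unadjusted p under 0.05. Which member stood out thus depended on the aligner. These intervals do not show that the platforms gave the same change.

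Genes with the most similar profile were sought for the 6 called members, as the smallest root mean square difference of log2 level over the 10 libraries after each profile was centred on its own saline mean, among 10840 genes whose mean count reached 20. A small constant was added to each level before the log, which draws together profiles that start near 0 in saline livers. Nearest to Cd14 were Syt12 (0.516), Serpina3i (0.520) and Reg3b (0.549), and nearest to Tlr2 were Gbp6 (0.572), Steap4 (0.661) and Timp1 (0.687). Their fold changes were not all alike. The log2 fold change was 7.41 for Syt12, 7.55 for Serpina3i and 10.1 for Reg3b, beside 6.87 for Cd14. It was 5.50 for Gbp6, 4.80 for Steap4 and 6.68 for Timp1, beside 5.49 for Tlr2. Lbp had the serum acute-phase genes Hpx (0.166) and Hp (0.194) among its nearest 3, with 4933426M11Rik (0.178) between them. Myd88 was nearest to Ccl9 (0.135), H3f3b (0.147) and Tmem87b (0.168), Ly96 to Ptp4a1 (0.213), Mcart1 (0.216) and Kdelr2 (0.241), and Tlr3 to Glyat (0.147), 4930402H24Rik (0.159) and Tmtc4 (0.170).

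The wider pathway was described with 9 further gene lists holding 78 genes, 69 of them tested. Of these, 31 were higher, 15 lower and 23 not called, against 22.7% and 22.9% of all tested genes called higher and lower, with a median log2 fold change of 0.29. Of the 46 called, 35 passed in all 6 tables and 38 in every fit that left out 1 mouse. Among the other Toll-like receptors 3 of 7 tested were higher and 2 lower. The Tlr2 partners Tlr1 and Tlr6 rose by log2 fold changes of 1.003 (SE 0.27, edgeR adjusted p = 0.00605) and 1.07 (SE 0.41, adjusted p = 0.0468), beside 5.49 for Tlr2, and Tlr13, a sensor of bacterial ribosomal RNA, rose by 1.56 (SE 0.24). The call of Tlr6 held in this table alone and in 3 of the 10 fits without a mouse, with a log2 fold change of 0.27 in Ion Torrent STAR and 0.64 (adjusted p = 0.246) without ILB_9577, and Tlr1 passed in 4 of the 6 tables. Tlr5, the flagellin receptor, changed by -1.69 (SE 0.16) and Tlr12, a receptor of profilin, by -3.46 (SE 0.34), so Tlr3 was not alone among receptors in falling. Tlr7 (0.54, adjusted p = 0.148) and Tlr8 (-0.15, adjusted p = 0.747), both RNA sensors, did not pass, and Tlr9 and Tlr11 were under the minimum.

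Downstream of the receptors, 7 of 12 tested adaptors and kinases were higher and 1 lower, with a list median of 0.58. The lower one was Irak2, at -0.64 (SE 0.15, edgeR adjusted p = 0.00249), called in all 6 tables. Traf3, called higher at 0.29 (SE 0.10), passed in 1 of the 6 tables and in 4 of the 10 fits without a mouse. Ikbke, an interferon-pathway kinase, rose by 3.30 (SE 0.20, edgeR adjusted p = 1.08e-08), Ticam1, the adaptor of Tlr3, by 1.39 (SE 0.12, adjusted p = 3.70e-07) and Irak4, the kinase recruited by Myd88, by 0.94 (SE 0.16, adjusted p = 0.000254). Irak1 and Map3k7 were at 0.14 and 0.041 and did not pass. Ticam1 was thus higher in the same livers in which its receptor Tlr3 was lower. All 6 tested negative regulators were called, 4 higher and 2 lower: Irak3, which holds back the Myd88 complex, rose by 4.52 (SE 0.31, adjusted p = 3.13e-08), Tnfaip3, the ubiquitin-editing enzyme A20, by 2.38 (SE 0.64, adjusted p = 0.00675), Sarm1 by 1.93 (SE 0.26) and Tollip by 0.59 (SE 0.10), while Sigirr changed by -0.39 (SE 0.15) and Peli1, a ligase counted with these regulators, by -0.42 (SE 0.11). For Tnfaip3 a single treated liver, ILB_9578 at 54.9 CPM, set the size: the other treated mice held 4.83 to 8.84 CPM and the saline mice 2.31 to 5.02 CPM, and without ILB_9578 the log2 fold change was 1.01 (edgeR adjusted p = 0.00574). With each mouse left out in turn, Sigirr passed 5 of 10 times. Of 7 accessory and chaperone proteins, the receptor chaperones Hsp90b1 (1.48, SE 0.21) and Cnpy3 (0.34, SE 0.12) were higher and none was lower, and Unc93b1, the carrier of endosomal receptors, was at 0.029 (adjusted p = 0.937). Cnpy3 passed in 3 of the 6 tables and in 4 of the 10 fits without a mouse.

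Although Nod1 did not pass, 6 of 8 genes of NOD signaling and peptide transport were higher and 1 lower. Card9, among the 6, rose by 1.09 (SE 0.38, edgeR adjusted p = 0.0344) from 0.18 to 0.28 CPM in saline mice. It passed in 3 of the 6 tables and in 5 of the 10 fits without a mouse, with 0.24 in Ion Torrent STAR. Ripk2, the kinase recruited by Nod1 and Nod2, rose by 1.44 (SE 0.27, edgeR adjusted p = 0.000483), and the peptide transporters Slc15a2 and Slc15a3 by 1.64 (SE 0.58, adjusted p = 0.0318) and 1.35 (SE 0.18, adjusted p = 2.57e-05), whereas Slc15a4 was at 0.015 (adjusted p = 0.984). Slc15a2 did not pass without ILB_9578, ILB_9582, UNT_9576 or UNT_9580, its log2 fold change without a mouse running from 1.23 to 2.22. Birc2 and Birc3, ubiquitin ligases of the pathway, rose by 0.75 each (SE 0.14 and 0.19), and Xiap, a further one, changed by -0.83 (SE 0.12). The inflammasome list around Nlrp3 was divided, with 4 of 15 higher, 6 lower and a median of -0.12. Gsdmd, whose cleaved form makes membrane pores, rose by 1.37 (SE 0.095, adjusted p = 3.32e-08), Nlrp12 by 1.42 (SE 0.15), Casp4 by 1.13 (SE 0.26) and Nek7, a binding partner of Nlrp3, by 1.01 (SE 0.14), while Txnip changed by -1.74 (SE 0.22), Il18 by -0.86 (SE 0.20), Nlrp6 by -0.60 (SE 0.12) and Aim2 by -0.90 (SE 0.34). Aim2 and Il18 were called in 2 and 3 of the 6 tables, with log2 fold changes of -0.16 and -0.28 in Ion Torrent STAR, and Aim2 had the opposite sign in 1 table and passed in 2 of the 10 fits without a mouse. Casp1 (-0.52, adjusted p = 0.0745), Pycard (0.55, adjusted p = 0.139) and Il1b (0.63, adjusted p = 0.0936) did not pass.

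Of the 3 other tested NOD-like genes 1 was called, Nlrx1 at -0.72 (SE 0.22, edgeR adjusted p = 0.0162), and Nlrc5 was at 0.034 (adjusted p = 0.909). Among 7 cytosolic nucleic acid sensors, Zbp1 (1.66, SE 0.21) and Tmem173, which encodes STING (1.07, SE 0.28), were higher, and the RNA helicases Ddx58 (-0.90, SE 0.16) and Dhx58 (-0.75, SE 0.20) were lower, with Mavs at -0.052 (adjusted p = 0.771). Of other genes binding lipopolysaccharide or peptidoglycan, 3 of 4 tested were higher: Pglyrp1 (3.34, SE 0.53), a peptidoglycan-binding protein of neutrophil granules, and the scavenger receptors Marco (2.16, SE 0.36) and Msr1 (1.14, SE 0.22), while Pglyrp2 was at 0.070 (adjusted p = 0.745). Pglyrp1 was at 0 to 0.17 CPM in saline livers and 0.60 to 1.49 CPM in treated livers, so it met the minimum count through the treated group. Bpi had 0 counts in every library.

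**Figure D4:**
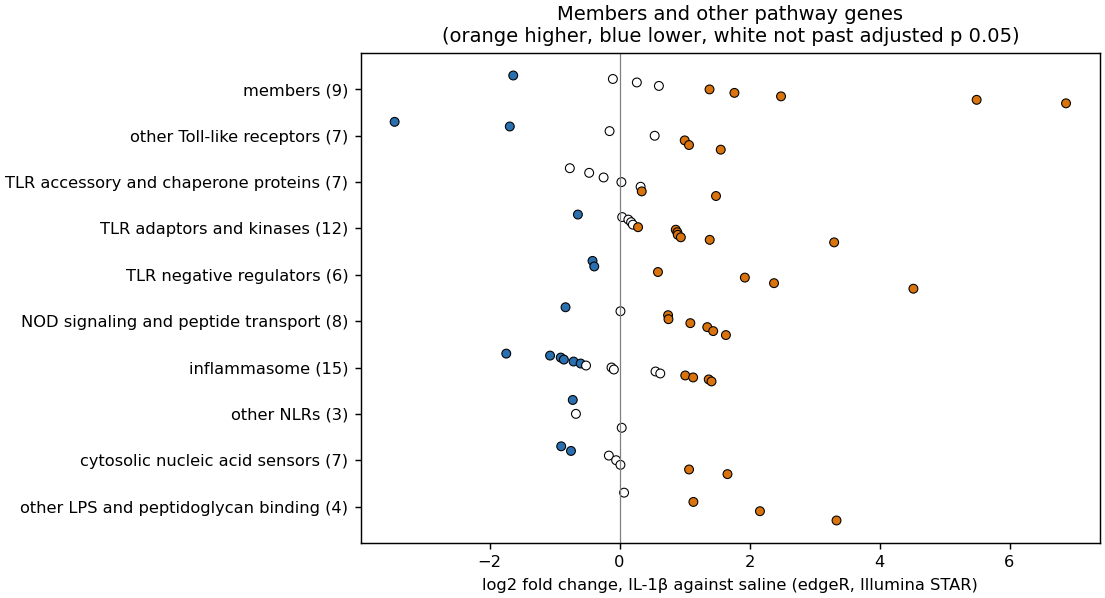
Log2 fold change, IL-1β against saline, in the Illumina STAR table of the members and of the tested genes of 9 further lists (number tested in parentheses), with 1 point per gene, orange for called higher, blue for called lower and white for not past an edgeR adjusted p of 0.05. Cd14 and Tlr2, at 6.87 and 5.49, lie to the right of every gene of the other lists, and the inflammasome list has points on both sides of 0.

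In bulk liver, fewer cells of a type and less RNA per cell cannot be told apart, and several members are expressed by more than 1 cell type. Cell type markers were counted beside the 22.7% of all tested genes called higher and the 22.9% called lower. The lists are short, so a count called near these shares is not read as a change of a cell type. All 8 tested neutrophil markers of 10 were higher, their summed level going from 2.13 to 6.24 CPM in saline mice to 53.3 to 118 CPM in treated mice, and Ngp, Ltf, Camp and Ly6g were at 0 in every saline library. Testing needed 5 counts in 5 libraries, so markers near 0 in saline livers, such as Ngp and Ltf, entered through the treated group. For these, being called higher follows from the minimum count and is not a separate result. Of 7 monocyte markers 4 were higher (summed level 36.7 to 60.4 CPM in saline and 45.5 to 85.9 CPM in treated mice). Among these 4, Chil3 (0 to 0.093 CPM in saline mice) and F13a1 (0 to 0.42 CPM) also met the minimum through the treated group. Their calls are likewise not a separate result. Of 10 Kupffer cell markers none was higher and 3, Clec4f, Vsig4 and Csf1r, were lower (168 to 304 CPM in saline and 107 to 234 CPM in treated mice), and of 6 hepatocyte markers 4 were lower. Of 4 cholangiocyte markers 2 were higher (4.37 to 7.08 CPM in saline and 9.06 to 14.7 CPM in treated mice, without overlap). These were Sox9 (log2 fold change 1.51) and Epcam (0.96), while Krt19 (0.18, edgeR adjusted p = 0.671) and Krt7 (0.26, adjusted p = 0.484) did not pass. Sinusoidal endothelial markers were lower for 3 of 7 and higher for 1 (147 to 214 and 92.9 to 163 CPM), stellate cell markers lower for 3 of 7 and higher for 1 (254 to 313 and 175 to 261 CPM), and lymphocyte markers lower for 1 of 6 tested (1.87 to 3.996 and 1.21 to 2.68 CPM). None of the markers outside the neutrophil list was at 0 in all libraries. The part of these cell types in the changes of Cd14, Tlr2, Ly96, Myd88 and Tlr3 was not tested.

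The levels of Tlr2 and Myd88 in the treated mice are given here beside the marker sums. Mouse ILB_9579, highest for Tlr2 (177 CPM) and Myd88 (89.4 CPM), had the lowest neutrophil sum (53.3 CPM) and the lowest Kupffer sum (107 CPM) of the 5. The same mouse had the highest lymphocyte sum (2.68 CPM), and its hepatocyte sum (77332 CPM) was close to the highest (77341 CPM). Mouse ILB_9578, with the highest neutrophil sum (118 CPM), had the lowest Tlr2 (56.5 CPM). For Tlr4 and Nlrp3 the 2 highest treated mice, ILB_9578 and ILB_9577, also had the highest Kupffer sums, at 214 and 234 CPM, and the highest monocyte sums, at 85.9 and 76.0 CPM. Their sinusoidal endothelial sums, at 163 and 151 CPM, were the highest of the treated mice as well. Cd14 was at 127 to 209 CPM over the treated mice, and which cells held its RNA was not tested. With 5 mice these orders are values and not a relation.

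**Figure D5:**
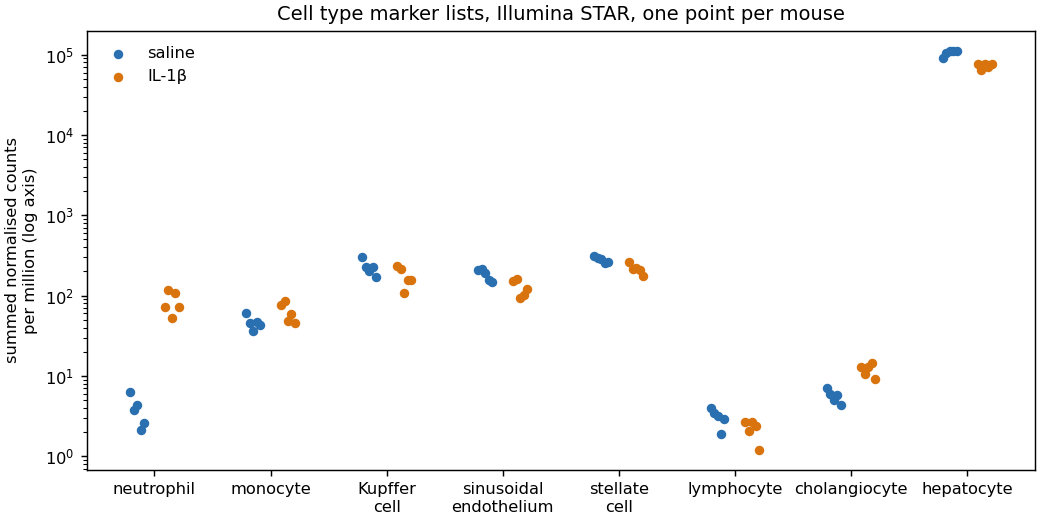
Summed level of 8 cell type marker lists in the Illumina STAR table, in CPM on a log axis, with 1 point per mouse (blue saline, orange IL-1β). The neutrophil sums do not overlap between groups (2.13 to 6.24 against 53.3 to 118), the monocyte and Kupffer sums do, and the hepatocyte sums are lower in every treated mouse.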

How the data were processed

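Liver RNA of 10 mice was sequenced on both platforms (TruSeq stranded mRNA, paired reads on Illumina; poly-A selected, strand-specific Ion Total RNA-Seq on Ion Torrent). The authors aligned reads to mm9 with GSNAP, STAR (2.5.1b) or STAR followed by Bowtie2 (2.2.9), and their PORT pipeline removed ribosomal and mitochondrial reads, re-sampled each library to the size of the smallest in its table and deposited whole-number counts per gene on Ensembl models. Re-sampling evens depth by discarding reads, which widens counting error of low genes such as Nod2. The strand setting of the counting is not given in the sources used here.

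Genes with at least 5 counts in at least 5 libraries of any table were tested with edgeR 4.0.16 (R 4.3.3; quasi-likelihood, trimmed mean of M-values, Benjamini-Hochberg, two-sided, threshold 0.05), each table apart. SE is the log2 fold change over the square root of F. Platform differences used 1 model with the mouse as a block, since both libraries of a mouse share its RNA (the correlations per mouse are given in the report). Alternatives were the other tables, DESeq2 1.42.0, limma-voom 3.58.1, the rank-sum test the study used, other scaling, other filters and each mouse left out. Simulated counts with known changes were used to check the scripts. No 2 libraries of a group agreed within sampling noise.

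Exon lengths and gene coordinates came from an annotation on NCBIM37 (mm9); start-site sequences came from RefSeq on GRCm38.p6, and coordinates of the builds were not converted. Sequence similarity was searched with BLAST 2.17.0. Members and gene lists were chosen with earlier results of these data known. Named genes were all members and the 3 most similar profiles. From each list came up to 3 called genes with the largest change and up to 2 uncalled ones with the highest mean count. Tlr1, Tlr6, Tollip, Sigirr, Peli1, Birc2, Birc3, Xiap, Casp4, Nek7, Il18, Nlrp6, Aim2, Casp1, Pycard, Il1b and Dhx58 were added after their values were seen. The same holds for Card9, Traf3 and Irak2.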

Additional observations from a re-analysis of the deposited data

How the results depend on the processing

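The number of members called (6, with 5 higher and 1 lower) was the same in the other Illumina tables. In the Illumina STAR table it was also the same with DESeq2, limma-voom, the rank-sum test, DESeq2 size factors and no scaling. The number did not change there with no minimum, with a minimum within the table, or without each of the 10 mice. It was 7 (6 higher and 1 lower) in the 3 Ion Torrent tables, where Tlr4 passed as well. Without a mouse, all genes called ran from 6579 to 7020 and list genes called from 39 to 45. Without scaling, the median log2 fold change of genes whose mean count reached 10 was -0.12 instead of 0.0046, and no member changed its direction. The direction of Nlrp3 reversed with Illumina GSNAP (0.20), without treated mouse ILB_9583 (0.028) and without saline mouse UNT_9574 (0.046); its cause was not tested, and the gene passed under no alternative, with a range of -0.41 to 0.046 without a mouse. Without a mouse the Illumina log2 fold change of Tlr4 ran from 0.28 to 0.79. For the platform-by-treatment term, 0 members passed with the mouse as a block and 0 with no replicate block, and 0 with any other aligner, with limma-voom or without any mouse; members with an unadjusted p under 0.05 numbered from 0 to 3. Depth limits what can be said of Nod2, Nlrp3 and Tlr4, at 1 to 25 counts per library in the Illumina STAR table.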
